A study of Canis lupus familiaris with 48 samples.

Results

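The genes described here had a higher mean level after urea and lower mean levels after both NaCl and raffinose than in control medium, in the dog kidney epithelial cell line MDCK I. They are 113 of the 32704 genes counted. A gene was a member where its control mean was at least 1 CPM (counts per M, or megareads, of the library), its urea mean was over 1.5 times the control mean, and its NaCl and raffinose means were both under 0.67 times the control mean. The NaCl and raffinose means also had to lie within 1.6-fold of each other, and 0.1 CPM was added to each mean before the ratios were taken. The genes were thus chosen by group mean CPM, and their differences between the 4 groups are given as a description. Counts of calls on these contrasts are printed only beside their background.

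Urea passes through most cell membranes, whereas NaCl and raffinose, a trisaccharide, stay largely outside the cell. Added NaCl or raffinose therefore draws water out of the cell and raises the tonicity of the medium, while added urea raises its osmolality with little lasting loss of water. Cells of the kidney medulla meet both high NaCl and high urea, and in mammalian cells the transcription factor TonEBP (NFAT5) is known for its part in the response to raised tonicity.

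Cells were cultured for 144 h, and the medium of the last 24 h defined the group. The groups were urea, NaCl and raffinose, each with 200 mOsm of the solute added to reach 500 mOsm, and control, regular medium of 300 mOsm. Each group had 12 single-read RNA sequencing libraries of polyadenylated RNA, 1 at each of 12 cell passages from 1 to 19, so the 48 libraries come from 1 cell line and their spread is that between passages. Whether the libraries of a passage came from separate cultures is not stated in the sources used here. The study set out to measure how hyperosmotic medium changes the expression of transporters and pathways in these renal cells.

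Counted reads per library ran from 3.92 to 16.16 M, with medians of 10.3 M after urea, 11.93 M after NaCl, 10.12 M after raffinose and 10.24 M in control. The files give Ensembl identifiers, and 0 of the 32704 were paired with a symbol, so the members carry no names or known functions here and the cell type was not checked against markers. Genes are given by identifier and by position in the dog genome build CanFam3.1. Levels are CPM of the library total, and changes are log2 fold changes with their standard errors from edgeR, fitted with trimmed-mean (TMM) scaling. In bulk libraries, fewer cells that express a gene and less of its RNA per cell cannot be told apart.

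Opposite moves of this kind were made by a minority of the genes that urea raised. Of 12097 genes with a control mean of at least 1 CPM, 665 had a urea mean over 1.5 times the control mean and 3079 had NaCl and raffinose means both under 0.67 times it. Both held for 122 genes, which is 18.3% of those raised by urea. Means under 0.67 times control after both NaCl and raffinose were seen for 25.45% of all 12097 genes. Of the 122 genes, 116 also had NaCl and raffinose means within 1.6-fold. The rule leaves out 3 of them by name or position, which gives the 113. The median member stood at 1.86 times its control mean after urea, at 0.484 times after NaCl and at 0.464 times after raffinose. The median ratio over the members was 4.01 for urea over NaCl and 4.28 for urea over raffinose.

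The size of the moves varied between members. The urea over control ratio ran from 1.5 to 3.72; it was at least 2 for 42 members and at least 3 for 4. The NaCl over control ratio ran from 0.0903 to 0.659 and the raffinose over control ratio from 0.109 to 0.67. Both were at most 0.5 for 51 members and at most 0.25 for 8. The lowest NaCl over control ratio was that of ENSCAFG00000014422, which had 1 read in all 12 NaCl libraries together. Its NaCl mean of 0.0081 CPM was below the 0.1 CPM added to each mean. On a log2 scale of these ratios, the mean fall after NaCl and raffinose was larger than the rise after urea for 76 members and smaller for 37. The ratios use library totals, and the relative size of rise and fall depended on the scaling. With TMM scaling the members' median log2 changes were 0.97 after urea, -0.89 after NaCl and -0.88 after raffinose. With totals alone they were 0.9, -1.06 and -1.12. Only 16 members were both at least doubled after urea and at a ratio of at most 0.5 after each of the other solutes.

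Together the members took 2.46% ± 0.16 of all counted reads after urea, 0.719% ± 0.041 after NaCl, 0.702% ± 0.048 after raffinose and 1.42% ± 0.1 in control (SD, n = 12 each). The lowest urea library, at 2.23%, was above the highest control library, at 1.59%. The highest NaCl library (0.808%) and the highest raffinose library (0.773%) were below the lowest control library, at 1.21%. The members were chosen by group means over these same libraries, which favours such a separation, and it is given as a description. The 4 most abundant members supplied 50% of the members' CPM after urea. These were ENSCAFG00000014837 with 19.9%, ENSCAFG00000001433 with 11.7%, ENSCAFG00000019521 with 11.4% and ENSCAFG00000000661 with 7.07%.

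**Figure D1:**
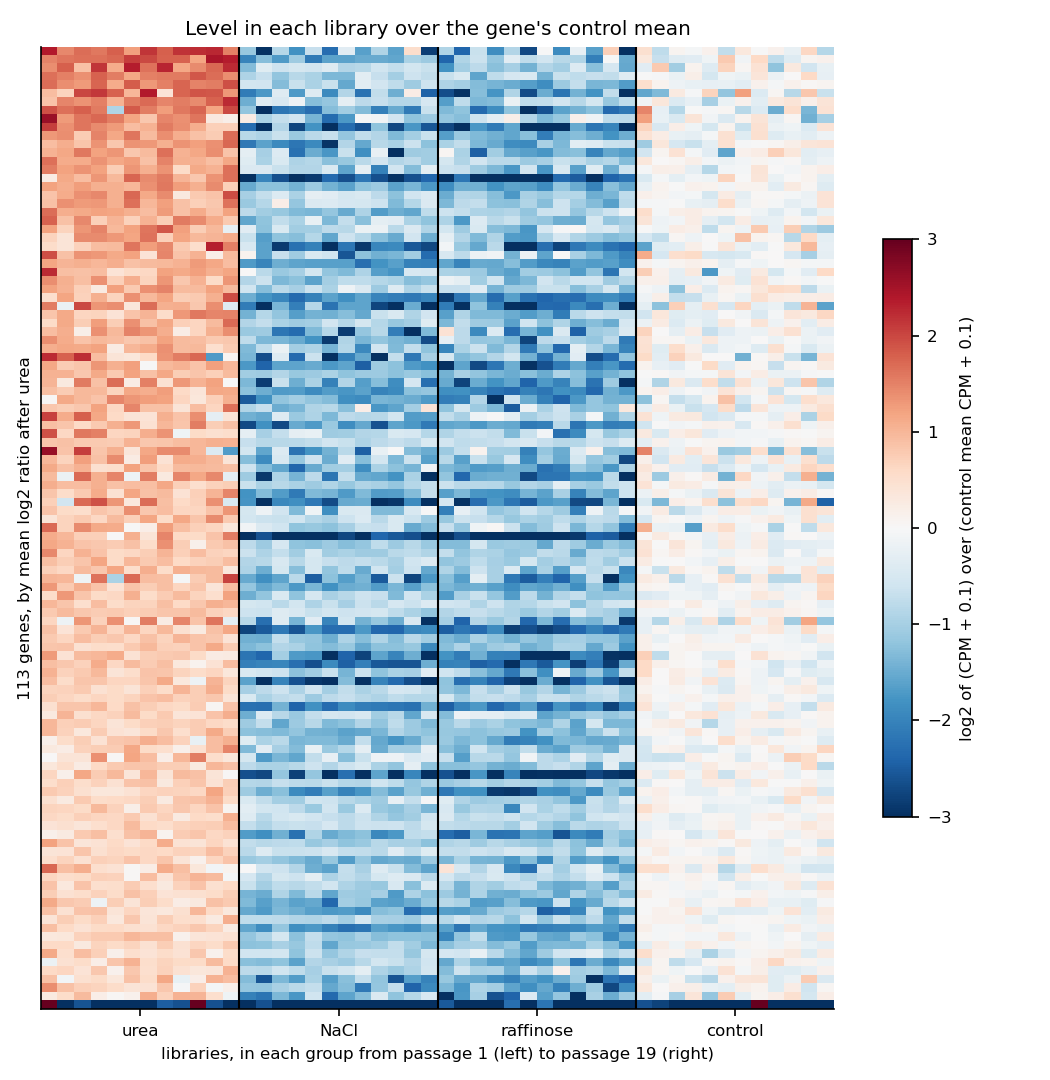
Colour shows the log2 ratio of each library's CPM to the gene's control mean (0.1 CPM added to both; scale capped at 3 in either direction) for the 113 genes (rows, ordered by their mean ratio after urea) in the 48 libraries (columns: urea, NaCl, raffinose, control, each from passage 1 to passage 19). The urea block is red and the NaCl and raffinose blocks are blue for nearly all genes; the row at the bottom is ENSCAFG00000014422, whose reads lie almost wholly in 3 libraries.

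The highest urea over control ratio was that of ENSCAFG00000009003 (chr15:63649232-63741300, minus strand, 41 exons). It had 106 CPM in its lowest, 155 CPM in its median and 234 CPM in its highest urea library, against 24.8, 46 and 69.1 CPM in control. After NaCl its lowest, median and highest values were 5.63, 17.4 and 64.8 CPM, and after raffinose they were 5.54, 19.1 and 73.2 CPM. Every urea library was above every control library, whereas the NaCl and raffinose libraries overlapped the control libraries; the highest NaCl, raffinose and control values were all at passage 17. Its log2 fold changes over control were 1.97 ± 0.31 after urea, -0.87 ± 0.32 after NaCl and -0.63 ± 0.32 after raffinose.

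ENSCAFG00000018623, a gene of a single exon (chr9:41535738-41537108, plus strand), came next in the order of urea ratios. Its lowest, median and highest values were 6.27, 9.35 and 15.2 CPM after urea, 0.544, 0.872 and 1.37 CPM after NaCl, 0.44, 1.45 and 2.7 CPM after raffinose, and 1.55, 2.5 and 4.78 CPM in control. The urea libraries all lay above the control libraries and the NaCl libraries all lay below them, while the raffinose libraries overlapped control. ENSCAFG00000012986 (chr28:35159834-35485173, minus strand) averaged 51 ± 17 CPM after urea, 9.54 ± 1.5 CPM after NaCl, 7.34 ± 2.1 CPM after raffinose and 15 ± 6.2 CPM in control (SD, n = 12 each). ENSCAFG00000010167 (chr31:35860596-35884282, plus strand) averaged 36.3 ± 14 CPM after urea, 5.52 ± 3.5 CPM after NaCl, 3.45 ± 1.9 CPM after raffinose and 11.7 ± 7.3 CPM in control (SD, n = 12 each). Its urea libraries, from 15.6 to 61.5 CPM, overlapped its control libraries, from 3.89 to 27.4 CPM.

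**Figure D2:**
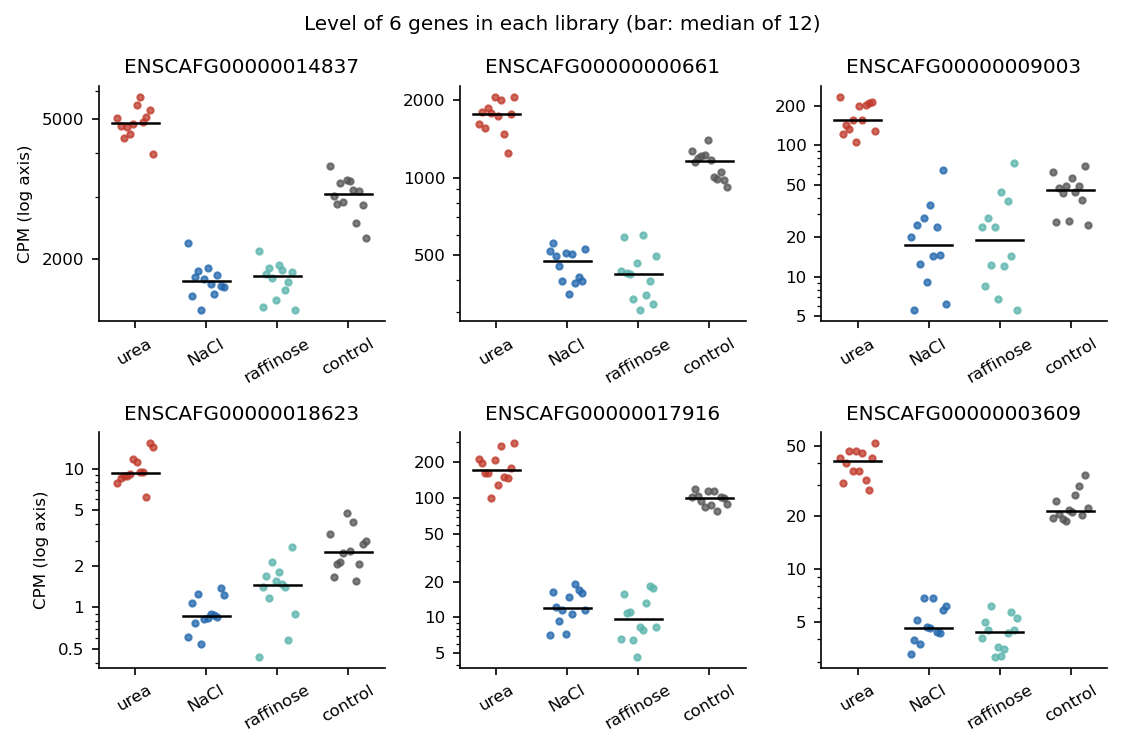
CPM on log axes (vertical; scale differs by panel) of 6 members in the 12 libraries of each group, with urea, NaCl, raffinose and control from left to right; points run from passage 1 to passage 19 within a group and the bar is the group median. In every panel the urea median is the highest; the NaCl and raffinose points lie below all control points for ENSCAFG00000014837, ENSCAFG00000000661, ENSCAFG00000017916 and ENSCAFG00000003609, and overlap them for ENSCAFG00000009003.

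The deepest falls after NaCl and raffinose among the tested members were those of ENSCAFG00000017916 (chr30:37531889-37541245, minus strand, 13 exons). Its lowest, median and highest values were 100.1, 172 and 290.4 CPM after urea, 7.13, 11.9 and 19.2 CPM after NaCl, 4.65, 9.61 and 18.3 CPM after raffinose, and 78.1, 101 and 120 CPM in control. The NaCl and raffinose libraries were all far below control, and the urea libraries overlapped it. The log2 fold changes over control were 0.97 ± 0.16 after urea, -2.81 ± 0.18 after NaCl and -2.97 ± 0.18 after raffinose.

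ENSCAFG00000018381 (chr4:60592307-60602504, plus strand, 3 exons) had a larger rise after urea and smaller falls after NaCl and raffinose than ENSCAFG00000017916, by its log2 fold changes of 1.3 ± 0.16, -2.45 ± 0.18 and -2.61 ± 0.18. It averaged 221 ± 59 CPM after urea, 15.4 ± 4.4 CPM after NaCl, 12.8 ± 5.5 CPM after raffinose and 94 ± 22 CPM in control (SD, n = 12 each). Its highest NaCl library (23.6 CPM) and its highest raffinose library (20.7 CPM) were below its lowest control library (68.1 CPM), and its urea libraries, from 112 CPM upwards, overlapped control, which reached 150.1 CPM. ENSCAFG00000014624 (chr9:20050594-20061640, minus strand, 7 exons) averaged 21.6 ± 5.3 CPM after urea, 2.77 ± 1.8 CPM after NaCl, 1.72 ± 1 CPM after raffinose and 13.4 ± 2.7 CPM in control (SD, n = 12 each).

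Per kilobase of exon the members spanned a wide range of control levels, from 0.24 to 565 CPM per kb. Their median was 16.8 CPM per kb after urea, 4.29 after NaCl, 3.75 after raffinose and 9.76 in control, where the median over all tested genes was 13.9. The highest control level per kilobase was that of ENSCAFG00000000661 (chr1:48161362-48210131, minus strand). Its lowest, median and highest values were 1240, 1769 and 2056 CPM after urea, 355, 474 and 558 CPM after NaCl, 305, 425 and 599 CPM after raffinose, and 922, 1160 and 1393 CPM in control. Its NaCl and raffinose libraries were all below control, and its urea libraries overlapped control at 1240 to 1393 CPM.

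ENSCAFG00000014837 (chr36:30537639-30677658, minus strand, 54 exons) had the second highest control level, 402 CPM per kb, and the most reads of all members. Its lowest, median and highest values were 3978, 4858 and 5778 CPM after urea, 1425, 1723 and 2216 CPM after NaCl, 1434, 1788 and 2108 CPM after raffinose, and 2290, 3062 and 3678 CPM in control. All 3 solutes were clear of control in this gene, with urea above it and NaCl and raffinose below it. The log2 fold changes were 0.76 ± 0.079 after urea, -0.63 ± 0.079 after NaCl and -0.56 ± 0.079 after raffinose, so an abundant member moved by less than a doubling in each direction.

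ENSCAFG00000014422 (unplaced scaffold JH373587.1, 5949 to 17742, minus strand) was a member through its means alone and did not pass the filter on low counts. Of its 329 reads after urea, 175 came from passage 1 and 150 from passage 16, and of its 199 control reads, 197 came from passage 13. It had 1 read in all 12 NaCl libraries together and 4 in all 12 raffinose libraries, and no other library held more than 2. No other member had most of its urea or of its control CPM in 1 library. The other 112 members passed the filter and were among the 12654 genes tested.

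At each threshold the nearest genes on either side had close values, except at the lower bound of the NaCl over raffinose ratio. The lowest urea over control ratio among the members was 1.501, for ENSCAFG00000015798, and ENSCAFG00000005675, at 1.484, was the nearest gene left out. For NaCl over control the nearest member was ENSCAFG00000011398 at 0.659 and the nearest gene outside was ENSCAFG00000003979 at 0.678. For raffinose over control they were ENSCAFG00000029322 at 0.67 and ENSCAFG00000000997 at 0.681. The highest NaCl over raffinose ratio inside was 1.584, for ENSCAFG00000010167, with ENSCAFG00000008170 outside at 1.601. The lowest inside was 0.647, for ENSCAFG00000031530, with ENSCAFG00000013909 outside at 0.452. The lowest control mean inside was 1.05 CPM, for ENSCAFG00000019150, and ENSCAFG00000011844 was left out at 0.894 CPM.

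The rule scaled libraries by their totals, and the choice of scaling decided some memberships. With totals alone the median log2 change of all tested genes was -0.05 after urea, -0.19 after NaCl and -0.25 after raffinose, whereas with TMM scaling it was 0.02, -0.02 and -0.02. The choice also moved the balance of calls over all tested genes: after urea edgeR called 3462 higher and 3157 lower with TMM scaling, and 2595 higher and 3868 lower with totals alone. After NaCl the split was 4375 higher and 4574 lower with TMM scaling and 3197 and 6081 with totals alone, and after raffinose it was 4648 and 4834 with TMM scaling and 3281 and 6551 with totals alone. The members' medians were 0.97, -0.89 and -0.88 with TMM scaling and 0.9, -1.06 and -1.12 with totals alone. The same thresholds on TMM-scaled totals gave 96 genes, of which 77 were among the 113. The 36 members lost included ENSCAFG00000014837 and ENSCAFG00000019521, both among the 4 most abundant. They also included ENSCAFG00000012986, ENSCAFG00000017539, ENSCAFG00000034999, ENSCAFG00000003612, ENSCAFG00000015813 and ENSCAFG00000029187, which are named in this report. Each passage could be left out in turn without losing the gene for 87 members, and 59 members stayed under that, under TMM scaling and under group medians.

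Because the rule used these contrasts, the calls on them are given beside their background and nothing is read from them. edgeR called all 112 tested members higher after urea, where 27.4% of all tested genes were called higher. It called 111 lower after NaCl (36.1% of all genes) and 106 lower after raffinose (38.2%), and 106 in all 3 directions (6.71%). The member not called after NaCl was ENSCAFG00000029322, at -0.62 ± 0.3 on the log2 scale. The 6 members not called after raffinose included ENSCAFG00000029322, ENSCAFG00000009003, ENSCAFG00000015813 and ENSCAFG00000019150. Every urea library was above every control library for 43 of the 112 (3.45% of all tested genes). Every NaCl library was below every control library for 54 (16.3%), every raffinose library for 61 (20.3%), and all of these held together for 25 (0.324%).

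The directions were the same at nearly every passage for most members. The rule used means over these same 12 passages, so this is a description. Urea was above the control library of the same passage at 12 of 12 passages for 97 of the 113 members (11.2% of all tested genes). NaCl was below control at all 12 for 89 members (32.1%), raffinose was below it for 89 (36.8%), and all 3 held at all 12 for 76 (2.41%). At fewer than 11 passages the direction was seen for 3 members after urea, 8 after NaCl and 9 after raffinose, ENSCAFG00000014422 among them. The median log2 ratio over the members stayed between 0.83 (passage 16) and 0.96 (passage 5) after urea. It lay between -1.19 (passage 10) and -0.86 (passage 5) after NaCl, and between -1.4 (passage 10) and -1.01 (passage 5) after raffinose. The members' share of reads after urea was 1.61 times that of the same-passage control at passage 5, the lowest ratio, and 2 times at passage 19, the highest; at passage 19 the control share was 1.27%.

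**Figure D3:**
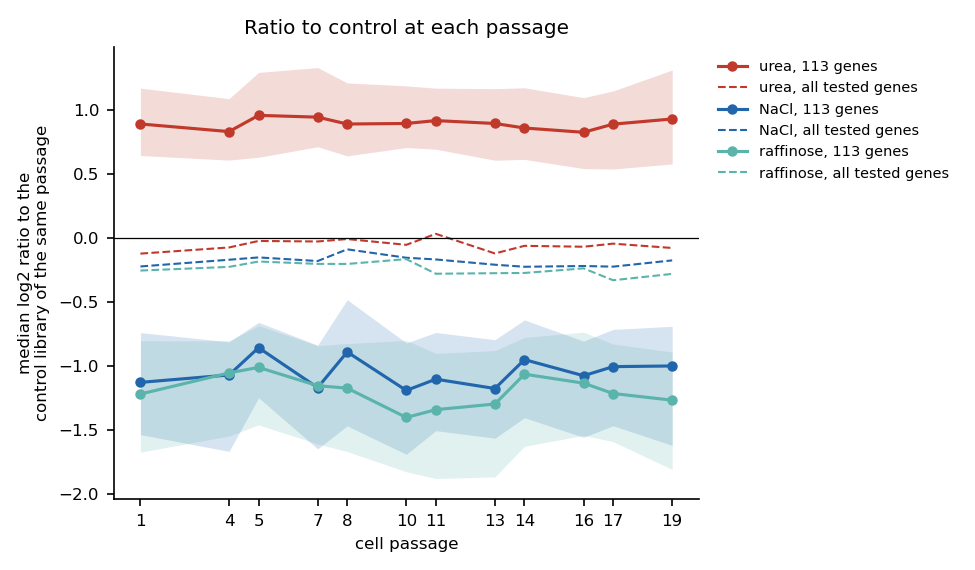
Median log2 ratio to the control library of the same passage (vertical) against cell passage (horizontal) for urea, NaCl and raffinose; solid lines with points are the 113 members, bands are their interquartile range, and dashed lines are all tested genes. The urea line stays between 0.83 and 0.96, and the NaCl and raffinose lines stay between -1.4 and -0.86.

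NaCl and raffinose gave like levels for most members, as the rule requires within 1.6-fold. In CPM of library totals, the mean was lower after raffinose than after NaCl for 80 of the 113 members and lower after NaCl for 33. With totals alone the median log2 NaCl over raffinose of all tested genes was 0.061, against 0.00025 with TMM scaling. In the fit with TMM scaling, 70 of the 112 tested members were above 0 and 42 were below it. On the log2 scale of the fit, NaCl over raffinose had a median of 0.05 over the 112 tested members and ran from -0.91 to 0.65. The rule bounds this ratio and so limits the calls among the members, and nothing is read from their number. edgeR called 8 of the 112 (7.14%), 5 higher and 3 lower after NaCl, where 15.4% of all tested genes were called. With the passage as a replicate block it called 25, 17 of them higher and 8 lower, or 22.3% of the members where 28.4% of all genes were called. With library totals alone it called 13 members, where 17.2% of all genes were called, and the split of calls over all genes turned to 1544 higher and 628 lower after NaCl, against 939 and 1009 with TMM scaling.

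Among the members called between the impermeant solutes, each singled out after its values were seen, ENSCAFG00000024647 (chr1:13566932-13638925, minus strand) averaged 18.1 ± 2.6 CPM after NaCl and 12.1 ± 2.1 CPM after raffinose (SD, n = 12 each). It averaged 79.4 ± 17 CPM after urea and 33.6 ± 8.3 CPM in control. ENSCAFG00000017539 (chr20:50115125-50152485, minus strand) went the other way, with 84.2 ± 18 CPM after NaCl and 114.9 ± 24 CPM after raffinose, beside 429 ± 71 CPM after urea and 193 ± 38 CPM in control. The log2 differences of NaCl over raffinose were 0.52 ± 0.12 for ENSCAFG00000024647 and -0.51 ± 0.12 for ENSCAFG00000017539. ENSCAFG00000018623, ENSCAFG00000031530, ENSCAFG00000019141, ENSCAFG00000023111, ENSCAFG00000001898 and ENSCAFG00000004621 were the others, with log2 differences of -0.7, -0.91, 0.43, 0.36, 0.46 and 0.54 in that order.

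The rule made no use of passage, so the trend of the members with passage was tested over all 48 libraries with the group as a term. edgeR called 23 of the 112 tested members, or 20.5%, where 16.2% of all tested genes were called (adjusted p under 0.05). Of these, 8 rose and 15 fell with passage. The median slope of the members was -0.03 on the log2 scale per 10 passages, and the median over all genes was 0.0027. The 4 libraries of a passage share that passage, and with their counts summed into 1 sample per passage 0 members were called, against 8 of all genes (0.0632%). With their mean log2 CPM tested by limma, 0 members and 25 genes (0.198%) were called. At an unadjusted p under 0.05 in the fit of 48 libraries there were 40 members, or 3831 of all genes (30.3%). Without passage 1, 10 members were called, 8 rising and 2 falling, where 8.7% of all genes were; without passage 5, 13 members were called (11.6%, where 10.8% of all genes were), and without passage 16, 31 (27.7%, where 21.7% of all genes were).

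The lowest adjusted p for the trend among the members belonged to ENSCAFG00000015813 (chr2:81115652-81149288, plus strand), with a slope of -0.69 ± 0.13 per 10 passages in edgeR (adjusted p = 0.000258). At passage 1 it had 18 CPM after urea, 4.98 CPM after NaCl, 3.3 CPM after raffinose and 10.1 CPM in control, and at passage 19 it had 8.96, 0.849, 1.07 and 3.8 CPM in the same groups. Each group's level was lower at passage 19 than at passage 1, while urea remained above control at both. The slope was -0.63 ± 0.19 with counts summed per passage, where the adjusted p was 0.204.

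ENSCAFG00000023194 (chr2:80997853-81036942, minus strand), 78709 bases away with 1 annotated gene between them, had the opposite trend, 0.41 ± 0.083 per 10 passages in edgeR (adjusted p = 0.000576). At passage 1 it had 226 CPM after urea, 47.7 CPM after NaCl, 41.1 CPM after raffinose and 85.8 CPM in control, and at passage 19 it had 358, 85.7, 76.6 and 197 CPM. All 4 groups were higher at passage 19. With counts summed per passage the slope was 0.42 ± 0.16 and the adjusted p was 0.311.

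**Figure D4:**
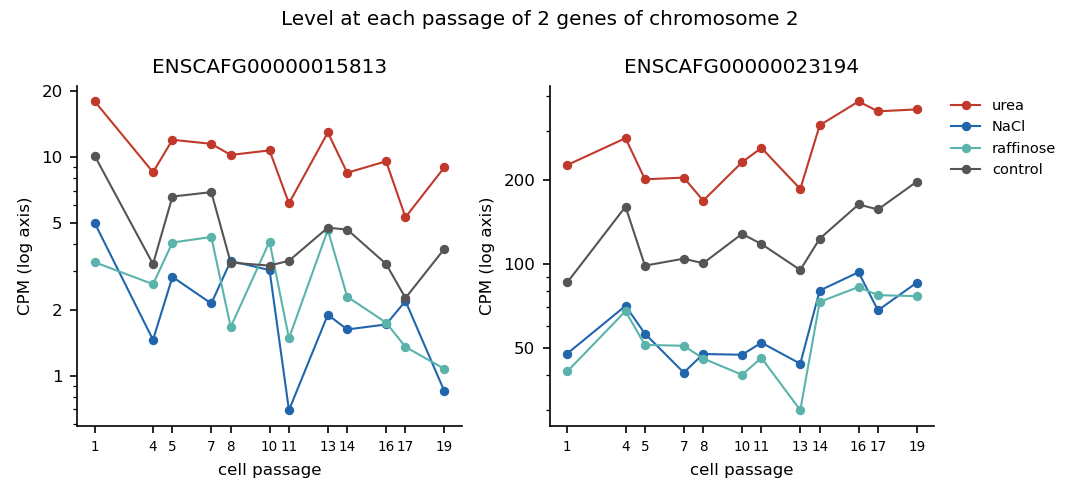
CPM on log axes (vertical; scale differs by panel) against cell passage (horizontal) for 2 members of chromosome 2, 1 line per group. For ENSCAFG00000015813 the urea line goes to 8.96 CPM at passage 19, against 18 CPM at passage 1; for ENSCAFG00000023194 it goes to 358 CPM, against 226 CPM at passage 1, and the urea line lies above the control line at all passages in both panels.

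Among the other members named for this trend, ENSCAFG00000023317 (chr17:34586716-34589136, plus strand) rose by 0.47 ± 0.1 per 10 passages (edgeR, adjusted p = 0.00117). ENSCAFG00000029187 (chr30:8001430-8005395, minus strand) had a slope of -0.56 ± 0.12 (adjusted p = 0.0012 in edgeR), but without passage 1 the slope was -0.31 ± 0.14 and the adjusted p was 0.166. ENSCAFG00000004856 (chr2:24512531-24550737, minus strand) had -0.42 ± 0.096 (edgeR, adjusted p = 0.00222). ENSCAFG00000009564 (chr38:366656-416168, plus strand) had -0.24 ± 0.057 (edgeR, adjusted p = 0.00264), and -0.18 ± 0.067 without passage 1, where the adjusted p was 0.0788. With counts summed per passage, none of these 4 passed, at adjusted p values of 0.219, 0.262, 0.225 and 0.262 in the order given.

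Whether the response to a solute itself changed with passage was tested with solute by passage terms in edgeR. For urea, NaCl and raffinose, 0 of the 112 members and 0 of the 12654 tested genes (0%) were called, and DESeq2 also called 0 members for each. At an unadjusted p under 0.05 there were 2 members for urea, 6 for NaCl and 7 for raffinose, where 2.73%, 4.43% and 5.57% of all genes passed that level. The members' slopes of the response ran from -0.68 to 0.46 per 10 passages on the log2 scale for urea, from -1.71 to 1.03 for NaCl and from -1.98 to 1.1 for raffinose. Their median standard errors of 0.24, 0.25 and 0.26 set the precision. A change of response of the size of these errors was not detectable in these libraries, and larger changes could also go uncalled. The members with slopes of -1.71 for NaCl and -1.98 for raffinose were not called.

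The members varied more between libraries of a group than most genes. Their median biological coefficient of variation, edgeR's estimate of the spread between replicates beyond counting, was 21.6% (from 9.81% to 55%), against 15.3% over all tested genes, and 92 of the 112 members lay above that value. The median coefficient of variation of CPM was 20.9% after urea, 25% after NaCl, 28.9% after raffinose and 20.4% in control for the members, against 16.8%, 16.1%, 18.7% and 15.7% for all tested genes in the same groups. These are descriptions of the members chosen, and the difference was not tested.

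In the annotation the members were spread over 30 of the 39 numbered chromosomes and X that hold tested genes, with at most 9 on any of them (chromosome 9). They had a median of 6 exons, 2270 exonic bases and a span of 13477 bases, where the tested genes had 9 exons, 2293 exonic bases and a span of 19670 bases. A single exon was annotated for 11 members (9.73%, against 6.89% of tested genes), and 2 to 5 exons for 39 (34.5%, against 26.6%). On the minus strand lay 69 members (61.1%, against 49.9%).

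Some members lay side by side: 13 of them formed 7 adjacent or overlapping pairs. On chromosome 28, ENSCAFG00000034999 (chr28:15122570-15147326, minus strand) and ENSCAFG00000010232 (chr28:15124042-15137850, plus strand) overlap by 13809 bases on opposite strands, with no exonic base in common in the annotation. ENSCAFG00000034999 averaged 7.29 ± 3.1 CPM after urea, 2.24 ± 0.52 CPM after NaCl, 1.89 ± 0.72 CPM after raffinose and 3.56 ± 0.59 CPM in control (SD, n = 12 each). ENSCAFG00000010232 averaged 131 ± 25 CPM after urea, 40.3 ± 5.8 CPM after NaCl, 37.4 ± 5.6 CPM after raffinose and 72.9 ± 12 CPM in control (SD, n = 12 each). Their log2 fold changes were 1.12 ± 0.18 for ENSCAFG00000034999 and 0.93 ± 0.098 for ENSCAFG00000010232 after urea, -0.49 ± 0.2 and -0.68 ± 0.099 after NaCl, and -0.68 ± 0.2 and -0.72 ± 0.099 after raffinose.

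On chromosome 33, ENSCAFG00000011940 (chr33:25640915-25676775, minus strand) and ENSCAFG00000011948 (chr33:25677076-25687590, plus strand) point away from each other with 300 bases between them. ENSCAFG00000011940 averaged 39.4 ± 9.8 CPM after urea, 10.4 ± 3.6 CPM after NaCl, 9.48 ± 3.5 CPM after raffinose and 20.6 ± 6 CPM in control (SD, n = 12 each). ENSCAFG00000011948 averaged 61.9 ± 11 CPM after urea, 17.9 ± 4.8 CPM after NaCl, 17.8 ± 5.5 CPM after raffinose and 34.6 ± 8.6 CPM in control (SD, n = 12 each). The next tested gene on the plus strand side, ENSCAFG00000011970, was no member and stood at 0.62 ± 0.2 after urea, -1.11 ± 0.21 after NaCl and -1.34 ± 0.22 after raffinose on the log2 scale. On the other side ENSCAFG00000011922 stood at -0.01 ± 0.051, 0.57 ± 0.051 and 0.77 ± 0.051.

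On chromosome 6, ENSCAFG00000020342 (chr6:68364494-68390586) and ENSCAFG00000020343 (chr6:68379297-68400785) lie on the minus strand and share 1022 exonic bases, which is 40% of the exonic length of ENSCAFG00000020342 and 18.3% of that of ENSCAFG00000020343. ENSCAFG00000020342 changed by 1.1 ± 0.22 after urea, -1.17 ± 0.23 after NaCl and -1.58 ± 0.24 after raffinose on the log2 scale. ENSCAFG00000020343 changed by 1.1 ± 0.26, -1.26 ± 0.29 and -1.57 ± 0.3 in the same order. How reads in the shared bases were counted was not examined, and the levels of this pair are less certain for it.

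On chromosome 15, singled out after their values were seen, 3 members of a single exon each lie in a row on the minus strand: ENSCAFG00000003606 (chr15:7175729-7176541), ENSCAFG00000003609 (chr15:7193413-7194213) and ENSCAFG00000003612 (chr15:7196963-7197784). ENSCAFG00000003609 had 28.1, 41.2 and 51.8 CPM in its lowest, median and highest urea library, 3.3, 4.67 and 6.92 CPM after NaCl, 3.18, 4.42 and 6.17 CPM after raffinose, and 18.7, 21.3 and 34.3 CPM in control. Its NaCl and raffinose libraries were all below control, and its urea libraries overlapped it. ENSCAFG00000003606 averaged 78.3 ± 17 CPM after urea, 15.2 ± 4 CPM after NaCl, 15.5 ± 4.8 CPM after raffinose and 42 ± 7.3 CPM in control (SD, n = 12 each).

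ENSCAFG00000003612 was the lowest of the trio, at 6.42 ± 1.3 CPM after urea, 2.24 ± 0.84 CPM after NaCl, 2.01 ± 0.84 CPM after raffinose and 3.48 ± 0.87 CPM in control (SD, n = 12 each). The trio's rise after urea was alike, from 0.86 to 0.98 on the log2 scale, and its fall after NaCl was not, at -1.3 ± 0.13 for ENSCAFG00000003606, -2.04 ± 0.12 for ENSCAFG00000003609 and -0.46 ± 0.18 for ENSCAFG00000003612. The next tested genes on either side were not close by. Counted from the start of the trio, ENSCAFG00000003603 ends at -49.9 kb and ENSCAFG00000003676 begins at 1062 kb. ENSCAFG00000003603 stood at 0.04 ± 0.11 after urea and -0.08 ± 0.11 after NaCl, and ENSCAFG00000003676 at -0.59 ± 0.12 and -1.36 ± 0.12.

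**Figure D5:**
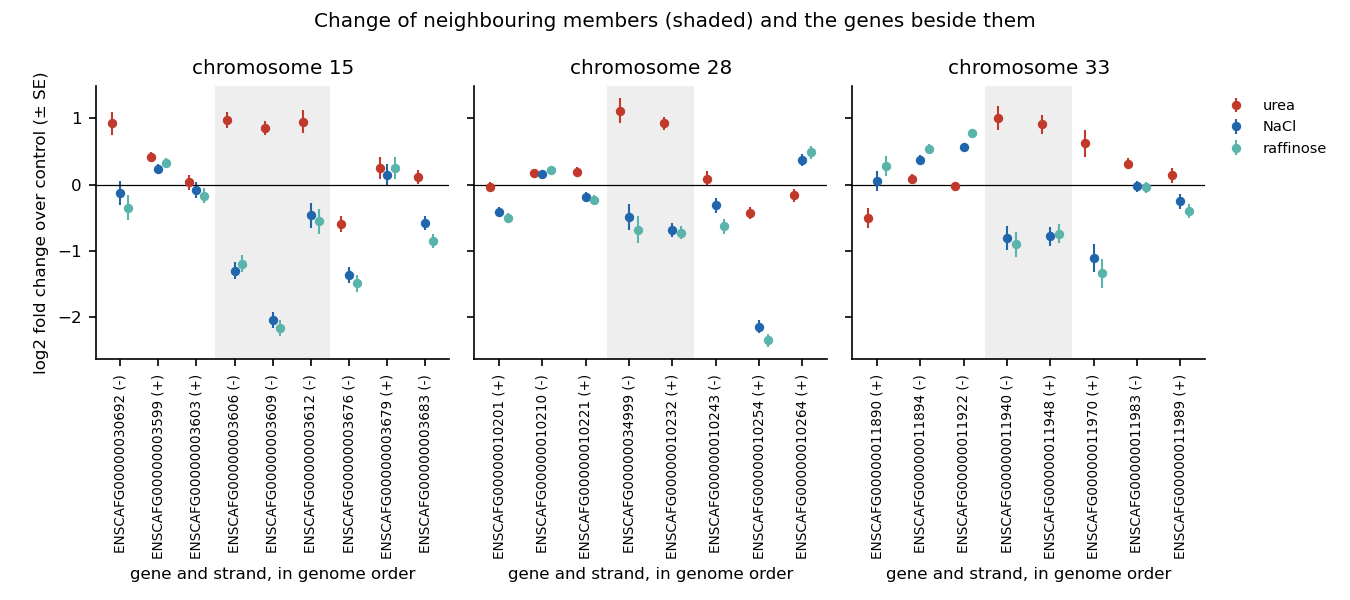
Log2 fold change over control (vertical, with SE) after urea, NaCl and raffinose for members that lie side by side (grey background) and the 3 nearest tested genes on each side, in genome order (horizontal, with strand) on chromosomes 15, 28 and 33. In the grey fields urea lies near 1 and NaCl and raffinose lie below 0; outside them ENSCAFG00000011970 stands at 0.62 after urea and -1.11 after NaCl, and ENSCAFG00000003603 at 0.04 and -0.08.

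Over all members there were 205 tested genes that were neighbours and not members themselves. Of these, 31.7% were called higher after urea (27.4% of all tested genes), 35.1% lower after NaCl (36.1%) and 41% lower after raffinose (38.2%). All 3 directions were called for 18 of the 205 (8.78%, against 6.71% of all tested genes), and this difference was not tested. The spans of 35 members overlap another annotated gene, and 6 members share exonic bases with one.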

How the data were processed

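RNA was sequenced in 48 libraries of MDCK I cells, 12 per group. A single table, deposited by the authors, holds raw counts for each gene beside its exonic length and exon positions, and the counts entered all fits as they stood. The submitters' processing notes name featureCounts (version 1.5.1), HISAT2 (version 2.0.5) and CASAVA. Counting was by gene over exons and ignored strand, on the CanFam3.1 annotation of Ensembl, per the file headers. The exonic length is another number of the deposited table and served only for CPM per kilobase. The table has 32704 genes; 0 rows lacked a gene name and 0 value columns were left unused. The columns of passage 10 carry an added number in their names that the sources used here do not explain; no other columns could belong to that passage's libraries.

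CPM was the count over the column total, and the rule in the report was applied to group means of CPM. Tests used edgeR 4.0.16 under R 4.3.3 (filterByExpr, TMM, glmQLFit over all 48 libraries, glmQLFTest), with Benjamini-Hochberg adjustment over the 12654 genes kept and a threshold of 0.05. Standard errors were taken as the absolute log2 fold change divided by the square root of the F statistic. Slopes are per 10 passages. The scripts were tested on simulated data. DESeq2 1.42.0 and limma 3.58.1 served alternatives. A level of 1 CPM equals 3.92 reads in the shallowest library and 16.16 in the deepest, and a count of 0 allows up to 3 reads. Without molecular identifiers these limits speak of counting error alone. P-values of the main fits measure the spread between libraries within groups, each from a different passage of 1 cell line. The trend fit over all 48 libraries counts the libraries of a passage separately, and only its passage-level alternatives use 1 sample per passage. Within groups all library pairs were further apart than counting noise (lowest chi-square per gene 5.03), so none was treated as a duplicate.

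The passage numbers in the labels pair the libraries across groups. Deviations from the group means correlated at 0.306 on average in the 72 pairs of libraries of 1 passage, with 66 pairs over 0.1 and a range of -0.0865 to 0.696. In the 792 pairs of different passages the average was -0.0276. The members, lists and tests were chosen with earlier results of these data known.

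Genes are named by rule: the 4 highest urea over control ratios, the 4 lowest means of the log2 NaCl and raffinose ratios, the 2 highest control levels per length, up to 6 members called for the trend with passage, up to 6 members next to or overlapping another, members that failed the filter, and the nearest genes at each threshold. Others are said to be chosen after their values were seen, apart from the neighbours in the plot of adjacent genes, the member not called after NaCl and the most abundant members. The prepared lists of gene symbols and cell type markers could not be applied, since the identifiers were paired with no symbols; no sequences are printed for the same reason.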

Additional observations from a re-analysis of the deposited data

How the results depend on the processing

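No called value of a named gene changed sign under an alternative run, whereas the balance of calls over all genes turned with library totals alone after urea and between NaCl and raffinose, as given above. With RLE size factors the balance turned slightly after NaCl (4500 higher and 4475 lower) and after raffinose (4773 higher and 4700 lower). Without passage 1 the members called for the trend turned to 8 rising and 2 falling, against 8 rising and 15 falling. Of the counts given above, 310 of 326 values under alternatives stayed within 1.5 times the reported count. These values include the solute by passage counts, which were 0 in nearly every run. The rule gave 113 genes as reported and 16 with stricter thresholds (urea over 2, NaCl and raffinose under 0.5). It gave 94 with RLE size factors, 76 of them among the 113, and 109 with group medians, 92 of them among the 113. Offsets of 0.5 and 0.01 CPM gave 105 and 111 genes. The rule gave 114 without the shallowest library (urea, passage 8), and between 105 and 114 when each passage was left out in turn. An alternative chosen after seeing the data left out the control library of passage 4 and the urea libraries of passages 5 and 8. It gave 113 genes, of which 108 were shared. It called 24 members for the trend with passage (21.4%, where 14.9% of all genes were called). Between NaCl and raffinose it called 7 members and 1906 of all genes.

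Calls between NaCl and raffinose moved most with the pairing: with the passage as a replicate block, 3593 genes and 25 members were called, against 1948 genes and 8 members without it. Library totals alone gave 13 members and 2172 genes (17.2%). Leaving out each passage gave between 5 and 10 members (5 without passage 8 or 11) and between 1529 and 1881 genes. The trend with passage was called for 8 genes with counts summed per passage and for 25 with the mean log2 CPM per passage, and for 0 members in both. Leaving out each passage gave between 1100 and 2744 genes (1360 without passage 5) and between 10 and 31 members. The urea by passage term was called for 1 gene with no filter on low counts, and the raffinose by passage term for 1 gene with the replicate block, in place of 0. The block changed no other count of calls by over 1.5 times. The causes were not tested. For single genes named, 6194 of 6346 values kept their side of the threshold, 109 lost it and 43 gained it.

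Depth limits the lowest members: a level of 1 CPM is 3.92 reads in the shallowest library, against 16.16 in the deepest. The groups differ by solute and the replicates by passage of 1 line, so the values do not extend to other lines.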

Other observations

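A further 48 genes met the same ratios with a control mean under 1 CPM, from 0.072 to 0.894 CPM with a median of 0.293 CPM. They had a median of 135 reads over the 48 libraries together, and none had most of its urea reads in 1 library. The filter on low counts passed 10 of them. edgeR called 8 of these higher after urea and lower after both NaCl and raffinose, against 6.71% of all tested genes. Since the same contrasts chose them, this is a description. ENSCAFG00000011844 (chr8:4086479-4089250, minus strand), the one with the highest control mean, had 250 reads over the 12 urea libraries, 4 over the 12 NaCl libraries, 10 over the 12 raffinose libraries and 120 over the 12 control libraries.

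ENSCAFG00000013909 (chr6:8719546-8727277, minus strand) met every other condition and was left out by its NaCl over raffinose ratio of 0.452. It averaged 466 ± 253 CPM after urea, 27 ± 18 CPM after NaCl, 59.9 ± 32 CPM after raffinose and 159 ± 109 CPM in control (SD, n = 12 each). In each of the 4 groups its highest value was at passage 1, where it reached 1046 CPM after urea, 75.8 CPM after NaCl, 109 CPM after raffinose and 473 CPM in control.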
